A study of Mus musculus with 45 samples.

Results

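The genes described here are the nuclear-encoded subunits of oxidative phosphorylation in the hippocampus of mice on a standard diet (STD) or a typical western diet (TWD). They are the protein-coding genes of the deposited table whose symbol starts with Nduf followed by a, b, c, s or v and a number, with Cox4 to Cox8, with Uqcr or with Atp5. This rule found 78 of the 15897 genes in the table. By symbol alone, 37 were assigned to complex I, 8 to complex III, 16 to complex IV and 17 to complex V. A symbol need not name the complex that holds the protein, and Ndufa4 and Ndufa4l2 count in complex I here by symbol only. The rule itself uses symbols and no measured value, but it was chosen with earlier results of these data known. All 78 passed the authors' filter on low counts. The matching symbols Cox6c2, Ndufb4c and Ndufb1-ps are annotated as pseudogenes or non-coding RNA and were left out. Subunits encoded by mitochondrial DNA were not analysed here, since the authors discarded reads that mapped to the mitochondrial reference.

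Oxidative phosphorylation takes place in the inner mitochondrial membrane. Complex I takes electrons from NADH and passes them to ubiquinone, complex III passes them on to cytochrome c, and complex IV hands them to oxygen, while all of these complexes pump protons. Complex V, the ATP synthase, uses the proton gradient to make ATP. Neurons depend on this process for ion pumping and synaptic transmission, and most subunits are encoded in the nucleus and imported into the mitochondrion.

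RNA was taken from the hippocampus of 45 female C57Bl/6J mice of 4 genotypes, each on both diets. AwTw mice were wild-type littermates. A+Tw mice carried a single transgene for APPswe and PS1dE9 under the mouse PrP promoter, AwT+ mice carried human Tau with the P301L mutation under the CaMKII promoter, and A+T+ mice, from crosses of heterozygous mice of both lines, carried both. TWD, with 21% fat by weight, 0.15% cholesterol and 35% sucrose, was given from 7 months of age until sacrifice at 13 months, and STD had 5% fat and 0% cholesterol. On TWD there were 6 mice of each genotype, and on STD there were 6 AwTw, 6 AwT+, 5 A+Tw and 4 A+T+ mice, so that 21 mice were on STD and 24 on TWD. The labels place 20 mice in batch 0 (8 STD, 12 TWD) and 25 in batch 1 (13 STD, 12 TWD), and do not say what a batch is. Only 1 A+Tw/STD mouse was in batch 0.

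Each value is a variance-stabilized expression value on a log2-like scale from which the authors removed batch. The depth of each library is not known from these values, so the precision comes from the spread between mice. A gene was called when its adjusted p was under 0.05 in limma, where batch was a covariate and p-values were adjusted by Benjamini-Hochberg across the 15897 genes. The 8 genes used as markers of hippocampal fields, such as Prox1 of the dentate gyrus and Wfs1 of CA1, were all measured, with mean values between 7.98 (Spink8) and 11.33 (Fibcd1). One AwTw/STD mouse of batch 0 (replicate 2) stood apart from its group, with a mean of 10.71 over the 78 genes, while the other 5 AwTw/STD mice had means from 9.90 to 10.18. Several of the counts and medians that moved with this mouse are also given without it. Because it stood apart on these same genes, leaving it out lowers the AwTw/STD mean and raises the diet difference in AwTw by construction. One A+Tw/STD mouse (replicate 2) also had a mean of 10.71, where the others of its group had 10.02 to 10.46. Results without that mouse are not set out in the same way. In bulk tissue, fewer cells of a type and less RNA per cell cannot be told apart.

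Promoter sequence is shown for 5 subunit genes that were higher on TWD and that hold a binding motif of a factor known to act on nuclear genes of the respiratory chain. The 300-base RefSeq windows around the start of transcription (GRCm38.p6) were found for 62 of the 78 genes and searched on both strands. The core of the Nrf1 (nuclear respiratory factor 1) motif, GCGCATGC, lay in 9 of the 62 (14.5%) and in 3.05% of all 27025 symbols with a window. The ETS motif CCGGAAG, which the GA-binding protein recognises, lay in 14 (22.6%) against 9.93% of all. The YY1 motif AAGATGGC lay in 9 (14.5%) against 3.19%, and the motif of the estrogen-related receptors, TCAAGGTCA, in 1 (1.61%) against 0.466%. The GC box GGGCGG was found in 23 subunit genes (37.1%) and in 38.2% of all. Sites can overlap, since the ETS motif ends and the YY1 motif begins with the same letters and the Nrf1 core overlaps its own reverse complement. Among the 48 genes with a window that were called higher on TWD, the ETS motif lay in 13 and the Nrf1 core in 8. Among the other 14 genes, each of these motifs lay in 1. The YY1 motif lay in 6 of the 48 and 3 of the 14, and the GC box in 17 and 6. The motif of the estrogen-related receptors lay in 1 and 0. Whether a motif goes with the call was not tested. The stretches below lie before the start and in no annotated exon, run 5′ to 3′ along the gene's own strand, and carry Nrf1 and ETS motifs, in either orientation, in capitals. A match describes the letters only.
Atp5e, chr2:174464106-174464351, minus strand: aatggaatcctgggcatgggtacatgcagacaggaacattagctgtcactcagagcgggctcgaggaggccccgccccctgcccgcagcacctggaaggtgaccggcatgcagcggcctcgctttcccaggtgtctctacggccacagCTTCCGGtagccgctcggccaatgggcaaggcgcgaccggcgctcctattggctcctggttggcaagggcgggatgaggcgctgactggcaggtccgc
Uqcr11, chr10:80406831-80407071, minus strand: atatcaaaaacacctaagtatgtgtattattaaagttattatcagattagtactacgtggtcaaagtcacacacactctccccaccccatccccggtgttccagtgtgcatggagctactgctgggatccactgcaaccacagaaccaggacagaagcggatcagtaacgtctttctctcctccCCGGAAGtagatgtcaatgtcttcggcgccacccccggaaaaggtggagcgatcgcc
Cox6a1, chr5:115348982-115349129, minus strand: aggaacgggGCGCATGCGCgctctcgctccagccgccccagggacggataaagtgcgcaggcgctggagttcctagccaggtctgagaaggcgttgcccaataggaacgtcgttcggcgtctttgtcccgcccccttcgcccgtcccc
Ndufa6, chr15:82354323-82354541, minus strand: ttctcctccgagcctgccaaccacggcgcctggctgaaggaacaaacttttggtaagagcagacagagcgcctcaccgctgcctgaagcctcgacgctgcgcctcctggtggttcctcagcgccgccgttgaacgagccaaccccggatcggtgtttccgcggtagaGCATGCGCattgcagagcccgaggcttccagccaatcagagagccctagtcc
Atp5l, chr9:44920752-44920992, minus strand: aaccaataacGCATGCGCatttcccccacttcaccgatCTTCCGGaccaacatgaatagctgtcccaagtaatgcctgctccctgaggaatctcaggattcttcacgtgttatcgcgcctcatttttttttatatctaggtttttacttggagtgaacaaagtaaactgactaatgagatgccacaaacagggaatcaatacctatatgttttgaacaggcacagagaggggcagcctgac

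To ask how the diet altered these genes irrespective of genotype, TWD mice were compared with STD mice in a limma model with terms for genotype, batch and diet. Of the 78 subunit genes, 56 were called higher on TWD and 1 lower, which is 71.8% called higher. Over all genes, 16.0% were called higher and 13.4% lower. The median log2 difference of the subunit genes was 0.30, against -0.00138 over all genes. The estimate was above 0 for 74 of them and below 0 for Uqcrb, Uqcrc2, Cox8b and Atp5s. In complex I, 31 of 37 genes were called higher and 0 lower (median 0.32). In complex III, 5 of 8 were called higher and 1 lower (median 0.30), in complex IV 10 of 16 higher and 0 lower (median 0.21), and in complex V 10 of 17 higher and 0 lower (median 0.28). The STD and TWD mice overlapped in every one of the 78 genes, so the rise is a shift of the mean and not a separation of mice. Without any 1 of the 45 mice the number called lay between 51 and 61. It was 61 (60 higher, 1 lower) without the AwTw/STD mouse that stood apart, against 17.5% of all genes higher. The median of the subunit genes was then 0.34.

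**Figure D1:**
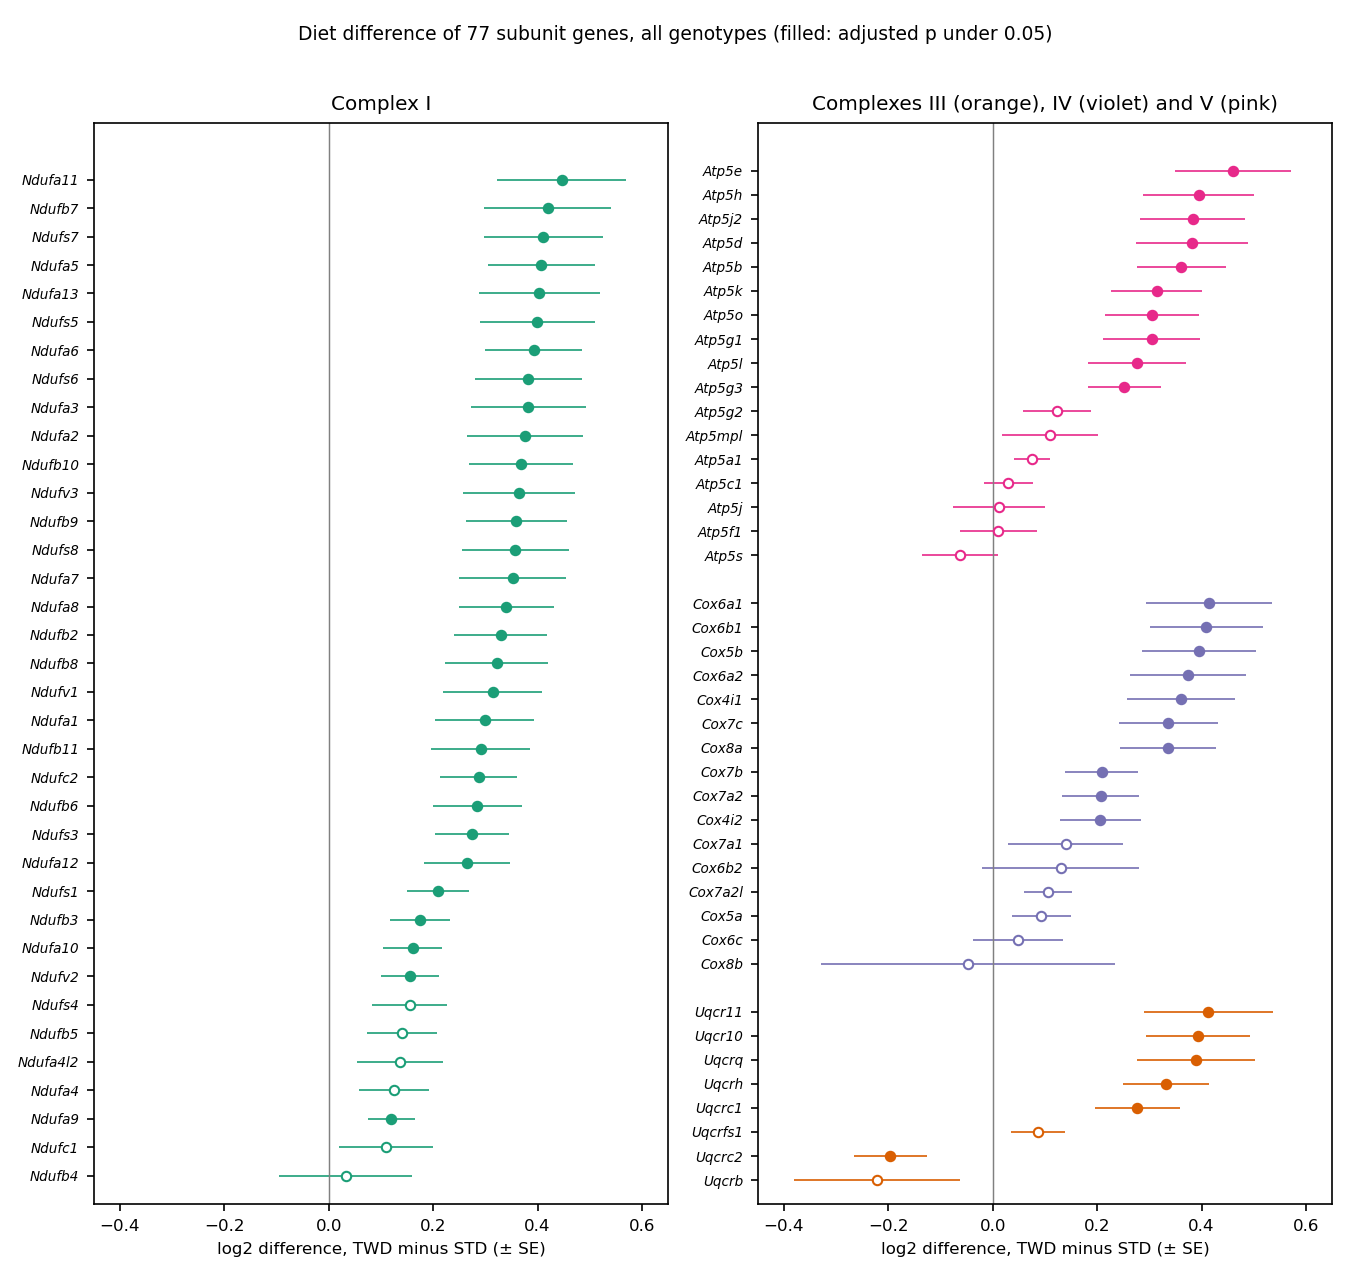
Log2 difference between TWD and STD (x axis, variance-stabilized log2-like scale) for 77 of the 78 subunit genes (y axis), with its standard error as a line. Filled points passed an adjusted p of 0.05 in limma, and the 55 filled points above 0 contrast with Uqcrc2, the filled point at -0.20.

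The mean over the genes of a complex shows the same shift mouse by mouse. For complex I the mean ranged from 9.73 to 10.60 (median 9.95) in the 21 STD mice and from 9.87 to 10.78 (median 10.24) in the 24 TWD mice. Of the TWD mice, 23 lay above the STD median, and 18 of the STD mice lay below the TWD median. Complex III ranged from 10.41 to 11.10 (median 10.58) on STD and from 10.44 to 11.18 (median 10.76) on TWD. Complex IV went from 9.31 to 10.26 (median 9.64) on STD and from 9.47 to 10.55 (median 9.94) on TWD. Complex V had 10.56 to 11.33 (median 10.78) on STD and 10.71 to 11.41 (median 11.00) on TWD. In each complex the ranges of the diets overlapped over most of their length. The difference of the mean in the same model was 0.29 for complex I, 0.18 for complex III, 0.23 for complex IV and 0.22 for complex V, and the SD between mice of one diet was between 0.18 and 0.29.

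**Figure D2:**
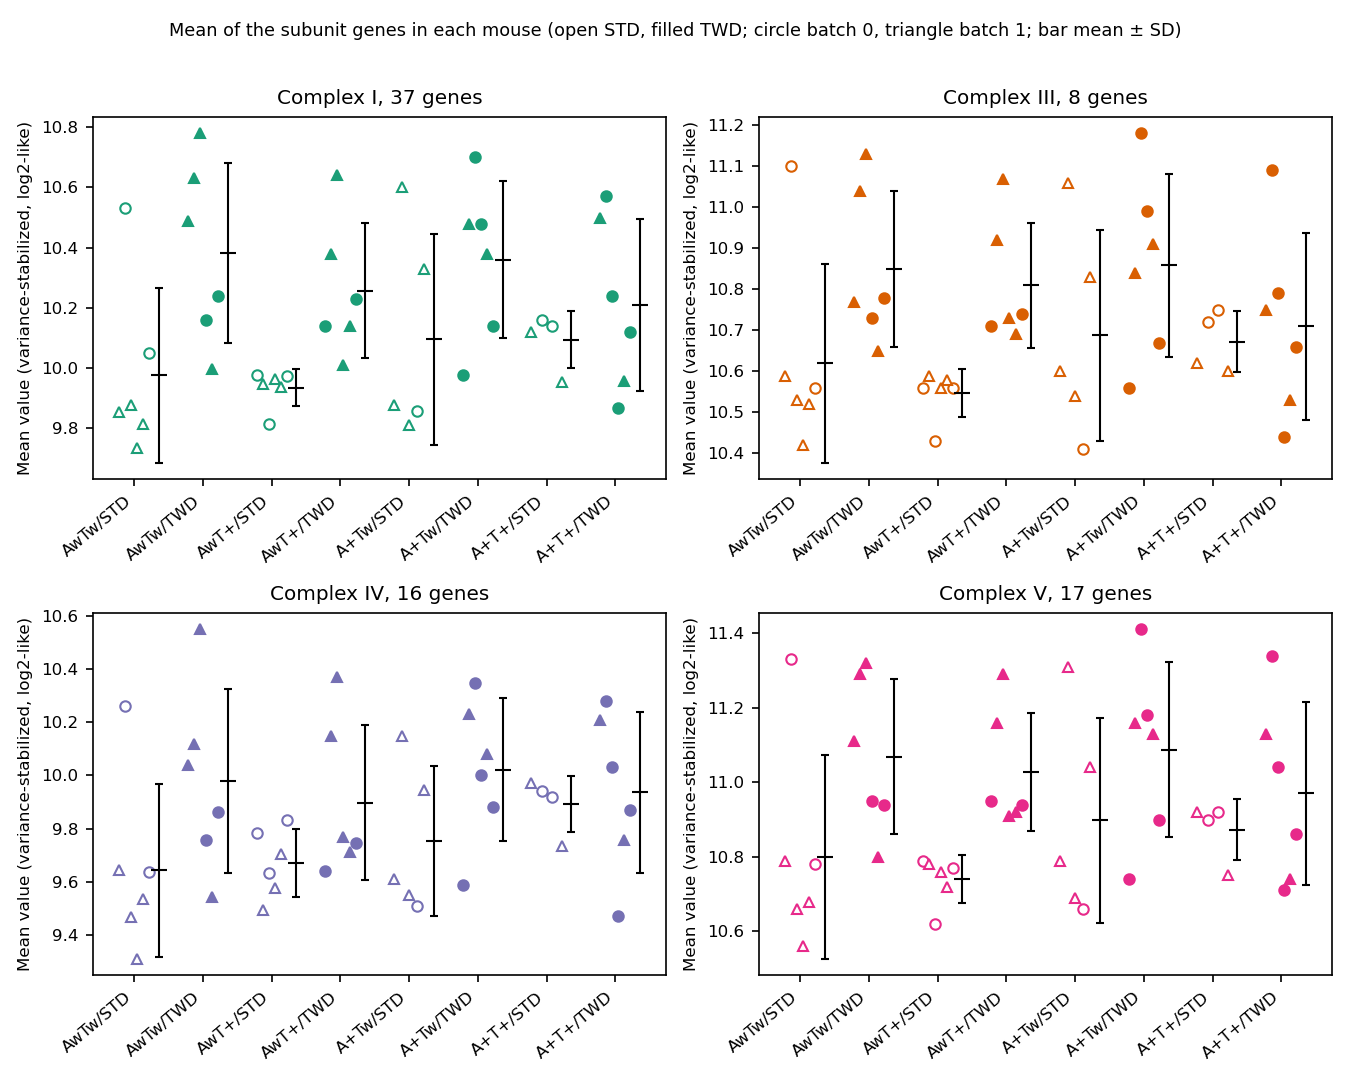
Mean value of the subunit genes of complexes I, III, IV and V (y axis, variance-stabilized log2-like scale) in each mouse of the 8 groups (x axis), with open symbols for STD, filled for TWD, circles for batch 0 and triangles for batch 1. Bars give the mean ± SD of each group (n = 4 to 6), and the single open circle high in AwTw/STD is the mouse of batch 0 that stood apart, with a complex I mean of 10.53.

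Complex I has a set of core subunits that hold the flavin and the iron-sulfur clusters, and a larger shell of accessory subunits. All 7 nuclear core genes in the list were called higher on TWD (median 0.31). So were 24 of the 30 other genes assigned to complex I by symbol (median 0.33). Ndufa6, an accessory subunit of the LYR family, ranged from 9.83 to 10.82 (median 10.08) in STD mice and from 10.04 to 11.06 (median 10.51) in TWD mice. Its TWD mice were shifted upwards with a wide overlap, and the log2 difference was 0.39 ± 0.09 (SE, adjusted p = 0.0157). Ndufa5, also an accessory subunit, had a difference of 0.41 ± 0.10 at the same adjusted p. Ndufc2, an accessory subunit of the membrane arm, rose by 0.29 ± 0.07 (adjusted p = 0.0157).

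The largest difference in complex I was that of Ndufa11, a membrane-arm subunit at the contact with complex III, which went from 9.40 to 11.04 (median 10.10) on STD and from 9.79 to 11.51 (median 10.56) on TWD. This difference was 0.45 ± 0.12 (adjusted p = 0.0159), and both the lowest and the highest mouse were higher on TWD. The smallest was that of Ndufb4 (0.03 ± 0.13, adjusted p = 0.86), whose STD mice ranged from 7.15 to 9.08 and whose TWD mice from 7.43 to 8.94. The other genes with a complex I symbol that were not called were Ndufa4 (0.12 ± 0.07), Ndufa4l2 (0.14 ± 0.08), Ndufb5, Ndufc1 and Ndufs4, with differences between 0.11 and 0.16. Ndufb4 thus showed a spread between mice but no shift beyond its error.

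Complex III was the only complex in which genes had opposite signs beyond the threshold. Its small subunits Uqcr10, Uqcr11, Uqcrh and Uqcrq were called higher, with differences of 0.39 ± 0.10, 0.41 ± 0.12, 0.33 ± 0.08 and 0.39 ± 0.11 (adjusted p from 0.0157 to 0.0183). Uqcr11, the smallest subunit (GRCm38 chromosome 10, 80402997 to 80406830), went from 10.19 to 11.77 (median 10.83) on STD and from 10.54 to 12.31 (median 11.18) on TWD. Of the large subunits, Uqcrc1, a core protein that faces the matrix, rose by 0.28 ± 0.08 (adjusted p = 0.0175), while its partner Uqcrc2 was the only subunit gene called lower. Uqcrc2 was named after its values were seen (GRCm38 chromosome 7, 120635176 to 120659524). It ranged from 11.29 to 11.87 (median 11.56) on STD and from 10.66 to 11.81 (median 11.39) on TWD, a difference of -0.20 ± 0.07 (adjusted p = 0.0353). The STD mice lay within a narrow band and the TWD mice reached further down. The call on Uqcrc2 was lost without any 1 of 8 mice, with differences between -0.22 and -0.16 over the 45 fits that left out a mouse. Uqcrb, which binds ubiquinone in the complex, had the lowest difference of all 78 genes at -0.22 ± 0.16, but its spread was wide, from 8.98 to 10.37 on STD and from 8.05 to 10.50 on TWD, and it was not called (adjusted p = 0.28). The Rieske iron-sulfur protein gene Uqcrfs1 had a difference of 0.09 ± 0.05 (adjusted p = 0.18).

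Complex IV holds several nuclear subunits that exist as tissue-specific isoforms. Cox6a1 (GRCm38 chromosome 5, 115345642 to 115348981), the isoform found in most tissues, had the largest difference, with 11.55 to 12.93 (median 12.04) on STD and 11.80 to 13.44 (median 12.46) on TWD. This was 0.41 ± 0.12 (adjusted p = 0.0172), with TWD mice above the highest STD mouse and STD mice below the lowest TWD mouse. Cox6b1, which lies at the dimer contact and faces cytochrome c, rose by 0.41 ± 0.11 (adjusted p = 0.0157), and Cox5b, a zinc-binding matrix subunit, by 0.39 ± 0.11 (adjusted p = 0.0159). Cox7c and Cox8a, small membrane subunits, each rose by 0.34 ± 0.09 (adjusted p = 0.0159). Genes without a call were Cox5a (0.09), Cox6c (0.05), Cox7a2l (0.11), Cox7a1 (0.14), Cox6b2 (0.13) and Cox8b (-0.05).

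The isoforms of restricted expression were far less abundant than their common partners. After division by the median length of the annotated transcripts, the log2 level of Cox4i1 exceeded that of Cox4i2, the isoform of lung and hypoxic cells, by 7.35 ± 0.27 (SD, n = 45). The level of Cox6a1 exceeded that of Cox6a2, the heart and muscle isoform, by 5.04 ± 0.18, and Cox7a2 exceeded Cox7a1 by 4.87 ± 0.36. Cox6b1 exceeded Cox6b2, the testis isoform, by 5.54 ± 0.52, Cox8a exceeded Cox8b by 5.68 ± 0.96, and Ndufa4 exceeded Ndufa4l2 by 5.76 ± 0.33. In every mouse the common partner of each of these pairs was the more abundant. Because the scale flattens low counts, these distances are approximate.

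Calls were found among both kinds of isoform. Cox4i1 rose by 0.36 ± 0.10 (adjusted p = 0.0169) and Cox4i2 by 0.21 ± 0.08 (adjusted p = 0.0398). Cox6a2 rose by 0.37 ± 0.11 (adjusted p = 0.0182), close to the value of Cox6a1, and Cox7a2 by 0.21 ± 0.07 (adjusted p = 0.0343). The calls on Cox4i2 and Cox7a2 were lost without any 1 of 18 and of 9 mice. Cox8b varied most among mice, from 4.81 to 7.78 on STD and from 4.95 to 8.21 on TWD, and its difference of -0.05 ± 0.28 had no direction beyond its error. The mean of 10 choroid plexus marker genes was 6.877 in the STD mouse at 4.81 and 10.43 in the TWD mouse at 8.21. Whether Cox8b followed choroid plexus tissue was not tested.

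In complex V, the F1 head makes ATP, the membrane ring of c subunits turns with the proton flow, and a peripheral stalk holds both together. Of the 5 head genes 3 were called higher, of the 4 stalk genes 2, of the 7 membrane genes 5, and the related protein gene Atp5s, which is not a subunit, had a difference of -0.06 ± 0.07 (adjusted p = 0.51). Atp5e, the epsilon subunit of the head (GRCm38 chromosome 2, 174461072 to 174464105), had the largest difference of all 78 genes. Its values went from 8.81 to 10.27 (median 9.37) on STD and from 9.39 to 10.56 (median 9.83) on TWD, a difference of 0.46 ± 0.11 (adjusted p = 0.0157). Of the 21 STD mice, many fell below the lowest TWD mouse. Atp5b, the catalytic beta subunit (GRCm38 chromosome 10, 128083273 to 128090391), ranged from 13.51 to 14.72 (median 13.96) on STD and from 13.81 to 14.80 (median 14.33) on TWD, and rose by 0.36 ± 0.09 (adjusted p = 0.0157). Its partner Atp5a1, the alpha subunit, had 0.08 ± 0.03 (adjusted p = 0.0825), and the gamma subunit gene Atp5c1 had 0.03 ± 0.05.

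In the stalk, Atp5h rose by 0.39 ± 0.11 (adjusted p = 0.0157) and Atp5o by 0.30 ± 0.09, whereas Atp5f1 and Atp5j had differences of 0.01 ± 0.07 and 0.01 ± 0.09. Atp5j2, a small membrane subunit, rose by 0.38 ± 0.10 (adjusted p = 0.0157). The c subunit is made from Atp5g1, Atp5g2 and Atp5g3, which encode the same mature protein. Atp5g1 rose by 0.30 ± 0.09 (adjusted p = 0.0192) and Atp5g3 by 0.25 ± 0.07 (adjusted p = 0.0159), while Atp5g2 had 0.12 ± 0.06 (adjusted p = 0.13).

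Exons of 19 of the 78 genes overlap those of another gene of the table on the opposite strand. Among them are Ndufa11 with Vmac, Cox4i1 with Emc8, Uqcrb with Gm10767, Atp5f1 with Wdr77 and Atp5j with Gabpa. The strand setting of the quantification is not given in the sources used here, so reads of such pairs may not have been told apart. The values of Ndufs3, Atp5a1 and Uqcrc1 are each identical to those of another entry without a symbol, and near-identical copies of subunit genes can share reads.

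The diet difference was then examined in each batch. In batch 0 (20 mice) 0 of the 78 genes and 0% of all genes were called by limma. At an unadjusted p under 0.05, 2 subunit genes (Ndufa10 and Ndufs3) were higher and 0 lower in batch 0, against 3.02% of all genes higher. The median log2 difference in batch 0 was 0.14, and 72 of the 78 estimates were above 0. Without the AwTw/STD mouse that stood apart, still 0 were called in batch 0, but 25 were higher and 0 lower at an unadjusted p under 0.05, against 5.59% of all genes higher, and the median was 0.20. In batch 1 (25 mice) 54 genes were called higher and 2 lower, against 20.3% and 20.6% of all genes, with a median of 0.47. The 2 lower genes in batch 1 were Uqcrc2 (-0.33 ± 0.11, adjusted p = 0.0248) and Uqcrb (-0.58 ± 0.23, adjusted p = 0.045), for which batch 0 gave -0.04 ± 0.06 and 0.14 ± 0.16. Atp5e had 0.21 ± 0.17 in batch 0 and 0.67 ± 0.15 in batch 1, and Ndufa11 had 0.14 ± 0.15 and 0.72 ± 0.17. In both of the latter genes the estimate of batch 1 was the larger. The difference between the batches itself was tested as an interaction of diet and batch, added after the data were seen. It was called for 0 subunit genes and 0% of all genes. At an unadjusted p under 0.05, diet had a higher estimate in batch 1 for 32 subunit genes and a lower one for 4 (Ndufb4, Uqcrb, Uqcrc2 and Atp5f1), against 12.4% of all genes higher. Without the mouse that stood apart 0 were called, and at an unadjusted p under 0.05 the estimate in batch 1 was higher for 14 and lower for 6, against 10.7% and 14.8% of all genes.

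**Figure D3:**
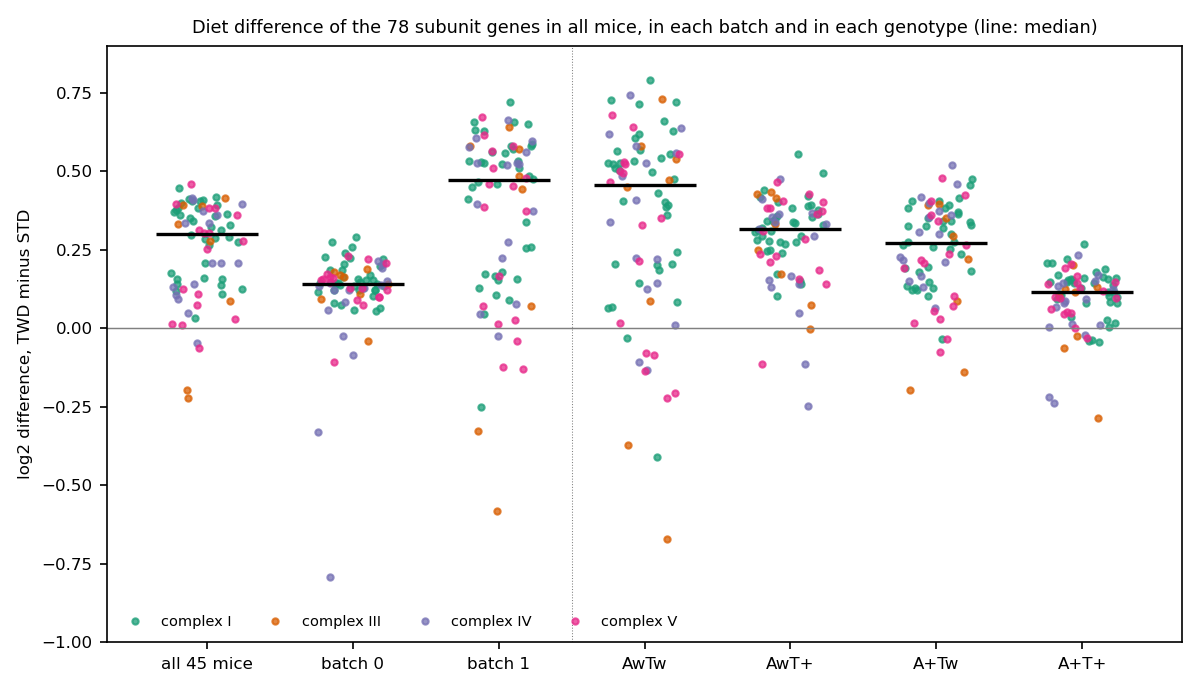
Log2 difference between TWD and STD (y axis) of the 78 subunit genes, coloured by complex, in all mice, in each batch and in each genotype (x axis), with the median as a line. The medians are 0.14 in batch 0 and 0.47 in batch 1, and fall from 0.46 in AwTw to 0.12 in A+T+.

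Within AwTw mice, 11 subunit genes were called higher on TWD and 0 lower (14.1%), against 6.01% of all genes higher and 3.34% lower, and the median was 0.46. This count rested on the threshold, since the 11 had an adjusted p of 0.0498 and a further 27 had one between 0.05 and 0.06. At an unadjusted p under 0.05, 49 subunit genes were higher (62.8%) and 2 lower, against 20.6% of all genes higher. Ndufa11 had the largest difference in AwTw at 0.79 (adjusted p = 0.0498), with 9.40 to 10.68 (median 9.95) in the 6 AwTw/STD mice and 9.99 to 11.51 (median 10.89) in the 6 AwTw/TWD mice. The groups overlapped only over part of their ranges. Cox6a1 differed by 0.74, Uqcr11 by 0.73, Ndufb7 by 0.73 and Atp5d by 0.68 in AwTw, all at the same adjusted p. Leaving out any 1 of the 45 mice moved the count, to 0 for 32 mice and to between 20 and 52 for 13. Without the AwTw/STD mouse that stood apart it was 52 (51 higher, 1 lower), against 15.6% of all genes higher and 2104 genes lower. The median was then 0.58, and 59 subunit genes were higher at an unadjusted p under 0.05, against 22.6% of all genes. Without AwTw/STD replicate 6 the count was 44, and without AwTw/TWD replicates 4 and 5 it was 39 and 50. The shares of all genes called in these last fits are not given here. The count was 0 without any of the other 8 AwTw mice. Of the mice of other genotypes, whose spread enters the same fit, 24 gave 0 and 9 between 20 and 41.

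Within AwTw each batch holds few mice. In batch 0, with 2 AwTw/STD and 2 AwTw/TWD mice, the mean over the 78 genes was 10.18 and 10.71 in the STD mice and 10.31 and 10.37 in the TWD mice. In batch 1, the 4 AwTw/STD mice had 9.90, 10.02, 10.03 and 10.09, and the 4 AwTw/TWD mice had 10.15, 10.56, 10.71 and 10.89. The groups did not overlap in batch 1 and overlapped in batch 0. The median log2 difference within AwTw was -0.08 in batch 0, where 0 subunit genes and 0% of all genes were called. Without the mouse that stood apart, which leaves 1 AwTw/STD mouse in batch 0, it was 0.15, so the sign in batch 0 turned on that mouse, and 0 subunit genes were called. In batch 1 the median was 0.73, with 49 subunit genes called higher and 1 lower, against 14.3% and 10.7% of all genes.

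No subunit gene was called for diet within the other genotypes, where limma called 0% of all genes for A+Tw, 0% for AwT+ and 0% for A+T+. In AwT+ mice the median was 0.32, with 29 subunit genes higher at an unadjusted p under 0.05 (37.2%), against 5.38% of all genes. In A+Tw mice the median was 0.27, with 6 higher (7.69%), against 2.21%. Without the AwTw/STD mouse that stood apart, whose spread enters the same fit, 34 were higher in AwT+ mice, against 5.55% of all genes. The number in A+Tw mice was then 13, against 3.09%. In A+T+ mice the median was 0.12, with 0 higher, against 1.13%. The mean over the 78 genes was 10.12 ± 0.06 (SD, n = 6) in AwT+/STD and 10.41 ± 0.21 (n = 6) in AwT+/TWD. It was 10.26 ± 0.31 (n = 5) in A+Tw/STD and 10.50 ± 0.25 (n = 6) in A+Tw/TWD. The 4 A+T+/STD mice had 10.15, 10.32, 10.33 and 10.33, and the A+T+/TWD mice had a mean of 10.37 ± 0.27 (n = 6). The AwT+/STD mice were the most alike, and 59 of the 78 genes had an estimate above 0 in all 4 genotypes. Only Uqcrc2 had one below 0 in all 4.

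By batch, the median in AwT+ was 0.25 in batch 0 and 0.38 in batch 1, in A+T+ 0.03 and 0.19, and in A+Tw 0.46 and 0.34, where the A+Tw value of batch 0 rests on 1 STD mouse. These values are from fits of 1 batch alone.

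Whether the diet difference varied with genotype was tested as the diet effect of a transgenic genotype minus that of AwTw. The comparisons share the AwTw mice. For AwT+ the median of the subunit genes was -0.12, for A+Tw -0.14 and for A+T+ -0.34, and 0 subunit genes were called in each, as were 0%, 0% and 0% of all genes. At an unadjusted p under 0.05 there were 3 subunit genes for AwT+ (Atp5c1, Atp5f1 and Atp5mpl, all above 0, with 4.02% of all genes), 0 for A+Tw (2.21%) and 1 for A+T+ (6.30%). The 1 was Ndufs5, an accessory subunit, with -0.70 ± 0.30 (adjusted p = 0.56). Without the AwTw/STD mouse that stood apart the medians were -0.26, -0.25 and -0.46, again with 0 calls. At an unadjusted p under 0.05 there were then 0 for AwT+, 1 for A+Tw and 20 for A+T+, all 20 below 0, against 6.86% of all genes below 0 in A+T+. That mouse stood apart on its high mean over these same genes, so its removal pushes these estimates down.

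The genotypes were also compared with AwTw on each diet. On STD the median of the subunit genes was -0.02 for AwT+, 0.14 for A+Tw and 0.16 for A+T+. Without the AwTw/STD mouse that stood apart the medians on STD were 0.12, 0.26 and 0.30, so the sign for AwT+ turned on that mouse. On TWD the medians were -0.12, -0.01 and -0.16 with all mice. None of the 78 was called by limma in any of the 6 comparisons, while 0%, 0.925% and 1.32% of all genes were called on STD and 0%, 0.824% and 0.730% on TWD. At an unadjusted p under 0.05 3 subunit genes differed on STD in AwT+ (Ndufa10, Atp5c1 and Atp5f1, all lower, with 2.39% of all genes). In A+Tw mice on STD it was 1 (Ndufs5, higher, with 5.66% of all genes), and in A+T+ mice on STD 3 (Cox7a1 higher, Ndufb4 and Atp5f1 lower, with 14.3%). Without that mouse the numbers on STD were 0, 5 and 12, all higher than in AwTw, against 1.86%, 6.23% and 10.6% of all genes higher. On TWD there were 0 for AwT+ (3.04%), 0 for A+Tw (5.20%) and 2 for A+T+ (Ndufa10 lower and Cox8b higher, with 7.76%).

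The smallest adjusted p of a genotype comparison was that of Ndufa10, an accessory subunit of complex I, in A+T+ against AwTw mice on TWD. The 6 AwTw/TWD mice ranged from 11.38 to 11.92 (median 11.55) and the 6 A+T+/TWD mice from 11.11 to 11.37 (median 11.24). The groups did not overlap, and the difference was -0.38 ± 0.11 (adjusted p = 0.0927). It was called, at -0.43 ± 0.11 (adjusted p = 0.0461), without AwTw/TWD replicate 3, and at -0.37 ± 0.09 (adjusted p = 0.0263) once the dependence on GC content and transcript length was taken out. On STD the same comparison gave -0.14 ± 0.12 (adjusted p = 0.54). In A+T+/STD mice Cox7a1 was at 6.19 ± 0.26 (SD, n = 4) against 5.59 ± 0.28 (n = 6) in AwTw/STD, a difference of 0.60 ± 0.23 (SE, adjusted p = 0.23). For Cox8b this comparison gave 1.25 ± 0.62 (adjusted p = 0.35), with 6.96 to 7.23 in the 4 A+T+/STD mice and 4.81 to 7.78 in the AwTw/STD mice. The mean of 10 choroid plexus marker genes also differed between these groups. It was 9.863 to 10.67 in A+T+/STD and 6.715 to 10.33 (median 7.405) in AwTw/STD. On TWD its medians were 9.709 in A+T+ and 6.718 in AwTw. Its part in the differences of Cox7a1 and Cox8b was not tested.

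The subunit genes rose and fell together from mouse to mouse within groups. After the group and batch means were removed, the median Pearson correlation over the 3003 pairs was 0.67, and 65.1% of pairs were above 0.5. It was 0.75 within complex I, 0.58 within complex III, 0.60 within complex IV and 0.54 within complex V, and between complexes it lay between 0.60 and 0.68. The pairs share libraries, so these values are descriptions. The genes with the lowest mean correlation with the rest were Uqcrc2 (-0.40), Uqcrb (-0.17), Atp5s (0.00), Ndufb4 (0.02), Atp5f1 (0.08) and Atp5j (0.15), none of which was called higher for diet. The highest were Ndufa6, Uqcrh and Uqcr10, at 0.73 each.

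Other measures of the same libraries moved with the subunit genes. Over the 45 mice the mean of the 78 genes had a Pearson correlation of 0.979 (Spearman 0.968) with the mean of 90 cytosolic ribosomal protein genes. Within batch 0 it was 0.968 and within batch 1 0.985, and without the 2 mice farthest from the median it was 0.976. The ribosomal protein mean went from 10.33 to 11.32 (median 10.60) on STD and from 10.61 to 11.35 (median 10.89) on TWD, with 64 of the 90 genes called higher and 2 lower (median log2 difference 0.31). For 78 mitochondrial ribosomal protein genes the correlation was 0.974, with 47 called higher and 0 lower (median 0.20). Over all genes 16.0% were called higher and 13.4% lower. The correlation was 0.963 for the median of genes with transcripts under 1000 nt minus the median of those over 3000 nt. This measure used gene-centred values and left out the subunit genes and both kinds of ribosomal protein genes. The 78 subunit genes are nearly all short, with a median length of 601 nt and 72 of them under 1000 nt, against a median of 1504 nt over all genes. When the ribosomal protein mean was added as a covariate, which also takes out what it shares with diet, 0 subunit genes were called, as were 0% of all genes higher, and the median difference of the subunit genes was 0.00159. When the leading residual component entered as a covariate, again 0 subunit genes and 0% of all genes were called higher, and the median was 0.09. Each mouse was scored on this component from values that still held the diet effect. Its mean score was -0.45 on STD and 0.39 on TWD, so this covariate too takes out what it shares with diet.

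**Figure D4:**
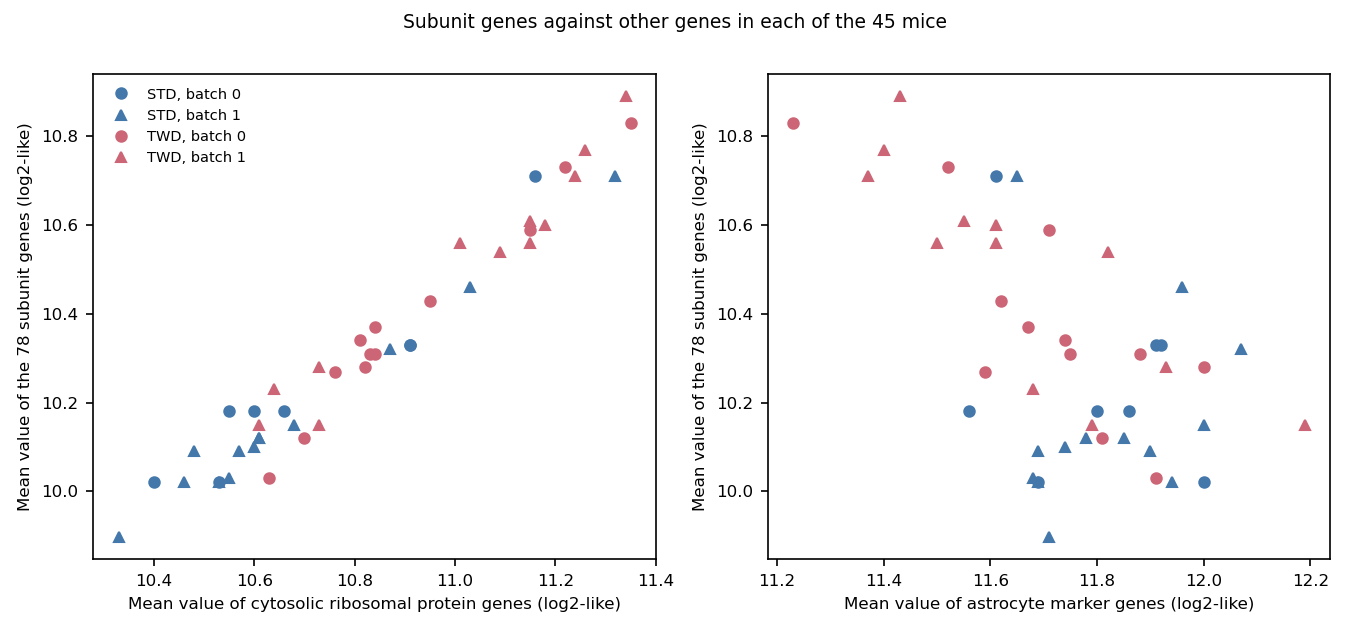
Mean value of the 78 subunit genes (y axis) against the mean of 90 cytosolic ribosomal protein genes (left) and of 8 astrocyte marker genes (right) in each of 45 mice, both on the log2-like scale, with colours for diet and shapes for batch. The points lie close to a line on the left (r = 0.979) and fall loosely to the right in the second panel (r = -0.616).

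The diet difference of a gene also varied with the GC content of its transcripts. Over 15695 genes the Spearman correlation of the log2 difference with GC content was 0.62, and over the 78 subunit genes it was 0.52. Genes are not independent replicates, and the points share the same mice. For the 11 subunit genes at or below 46% GC the median difference was 0.16, for the 22 from 46% to 50% it was 0.20, for the 19 from 50% to 54% it was 0.37, and for the 26 above 54% it was 0.36. All genes shorter than 1000 nt had medians of -0.15, -0.00, 0.11 and 0.16 in the same ranges of GC content. The subunit genes thus lay above short genes of the same range in each of the 4. Once the dependence on GC content and length was taken out of each mouse, 57 subunit genes were called higher and 1 lower, against 11.3% of all genes higher. The median was then 0.23, and the Spearman correlation with GC content over the 78 genes was -0.23. After the same removal 0 were called in batch 0 alone and 0 within AwTw. With short minus long transcripts as a covariate, which also takes out what that measure shares with diet, 0 were called and the median was 0.0127.

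**Figure D5:**
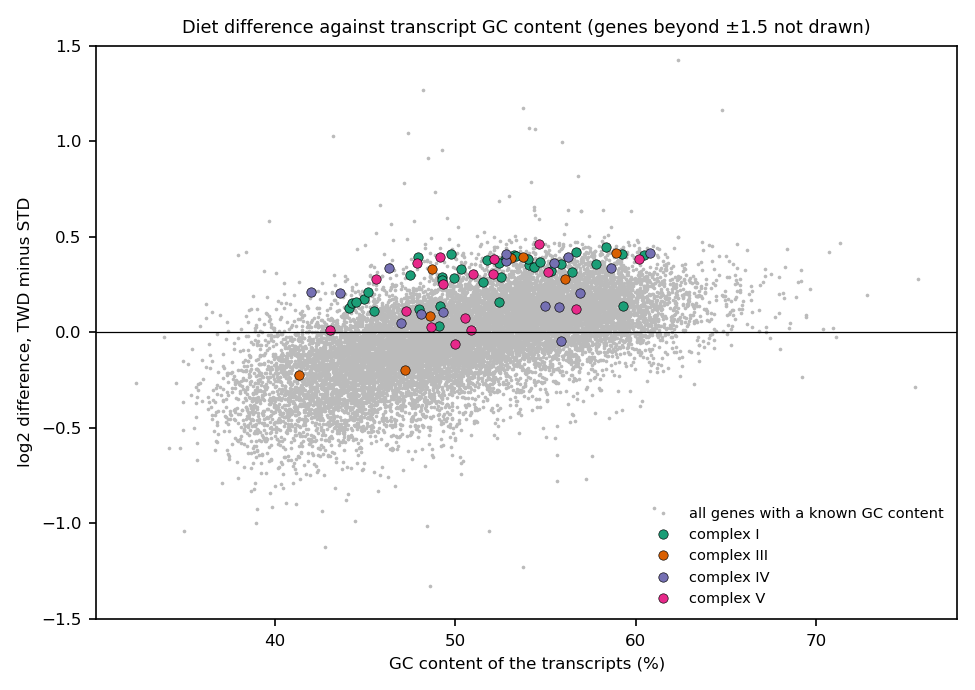
Log2 difference between TWD and STD (y axis) against the GC content of the transcripts in percent (x axis) for the 15695 genes with a known GC content in grey (those beyond the axis limits of ±1.5 are not drawn) and for the 78 subunit genes coloured by complex. The cloud rises with GC content (Spearman 0.62), most subunit genes lie in its upper part, and Uqcrb, at 41.3% GC, and Uqcrc2 lie below 0.

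Markers of cell types were compared in the same way, from lists of well-known genes. Over all genes 16.0% were called higher and 13.4% lower, and none of these short lists was tested against those shares. Of 12 neuron markers 4 were called higher on TWD and 3 lower (median 0.03), and their mean per mouse went from 12.88 to 13.34 on STD and from 12.69 to 13.24 on TWD. Of 8 astrocyte markers 2 were called higher and 3 lower (median -0.19), with means from 11.56 to 12.07 on STD and from 11.23 to 12.19 on TWD, and the astrocyte mean had a correlation of -0.616 with the subunit mean. Of 8 oligodendrocyte markers 4 were called higher and 0 lower (median 0.17), with means from 11.68 to 12.23 on STD and from 11.73 to 12.32 on TWD and a correlation of 0.518. Of 8 microglia markers 3 were called higher and 1 lower, of 8 endothelial markers 2 and 1, and of 6 pericyte markers 1 and 2. None of 10 choroid plexus markers was called, and their mean spread from 6.27 to 10.86 over the 45 mice. The part of these cell types in the result was not tested.

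Genes of the same pathway outside the symbol rule were counted as well, where 16.0% of all genes were called higher and 13.4% lower. Of 8 measured subunits and carriers, 5 were called higher on TWD and 0 lower. They were Atpif1, the inhibitor of ATP synthase (0.33 ± 0.08, adjusted p = 0.0157), the complex II iron-sulfur subunit gene Sdhb (0.29 ± 0.09), Ndufab1 (0.30 ± 0.10), the cytochrome c1 gene Cyc1 (0.22 ± 0.08) and Sdhc (0.16 ± 0.06). The flavoprotein gene Sdha had -0.08 ± 0.04 (adjusted p = 0.12). Of 15 assembly factors of complex I, 5 were called higher and 1 lower. Ecsit (0.25 ± 0.06), Timmdc1 (0.20 ± 0.05) and Ndufaf3 (0.36 ± 0.10) rose, and Nubpl, which delivers iron-sulfur clusters, fell by 0.36 on the log2 scale (SE 0.12, adjusted p = 0.0239). Of 31 measured assembly factors of complexes II to V, 14 were called higher and 3 lower, led by the copper chaperone Cox17 (0.43 ± 0.10) and by Coa3 (0.35 ± 0.09), both at an adjusted p of 0.0157, and the 3 were Coa5, Lyrm7 and Ttc19 (-0.26, -0.33 and -0.40).

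Regulators of these genes include coactivators, transcription factors and the mitochondrial transcription machinery. Of 12, 1 was called higher and 3 lower, against 16.0% and 13.4% of all genes, with a median of -0.22. The list was not tested against these shares. Ppargc1a, the coactivator known for driving mitochondrial biogenesis, had the lowest difference at -0.70 ± 0.17 (adjusted p = 0.0157). Yy1 (-0.26 ± 0.10) and Gabpb1 (-0.23 ± 0.08) were also called lower, and Polrmt, the mitochondrial RNA polymerase, was called higher (0.24 ± 0.09). Nrf1 had -0.02 ± 0.05 (adjusted p = 0.72) and Gabpa, the ETS factor whose motif is shown above, -0.45 ± 0.20 (adjusted p = 0.0779). Gabpa overlaps the exons of Atp5j.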

How the data were processed

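Hippocampal RNA of 45 mice was sequenced by the study as single reads of stranded poly(A) libraries. The authors trimmed the reads with Trimmomatic 0.38, discarded rRNA and mitochondrial reads with Bowtie 2 2.2.3, quantified transcripts (mm10) with kallisto 0.44.0, collapsed them to gene counts, dropped weakly expressed genes, transformed the counts by DESeq2 1.22.2 variance stabilization and removed batch with limma 3.38.3 (versions per the submitters' processing notes). What the authors deposited is thus log2-like in scale. The values hold no counts, so the depth of a mouse is unknown and low genes are flattened.

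Values were fitted with limma 3.58.1 in R 4.3.3 (mean trend, batch as covariate) for all 15897 genes. The effect of diet came from a model without interactions, and a fit of the 8 groups gave all other comparisons. All p-values are two-sided and were adjusted by Benjamini-Hochberg across the 15897 genes. Each sample is 1 mouse, and replicate numbers are names given in order and pair no mice. Symbols, coordinates, transcript length and GC content came from GENCODE M21 (GRCm38), which gave a symbol for 15707 genes and a length for 15695. Lists were summarised with Python 3.11.15, numpy 2.4.6, pandas 2.3.3 and scipy 1.17.1, and plots drawn with matplotlib 3.10.9. Promoters came from RefSeq.

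The genes named are, per complex, the 4 with the smallest p and the extremes for diet, the restricted isoforms with their partners and the c subunit genes, and any subunit gene called in a genotype comparison. The values of 1 gene that this rule names are not reported here, though it is counted among the 78. Up to 4 genes of each other list with the smallest p were to be named, and Sdha, Nrf1, Gabpa and all further ones were chosen after their values were seen. The genes, lists and tests were chosen with earlier results of these data known. Alternatives were no batch covariate, each batch, no mean trend, quantile normalization, a filter at the 25th percentile, removal of a length and GC trend, the mouse label prefix or a residual component as covariate, identical genes counted once, other thresholds, only the groups compared, complex membership, and each mouse left out. Added after the data were seen were covariates for ribosomal proteins and transcript length, the trend removal within batches, the interaction with batch, and both batch 0 and that interaction without AwTw/STD replicate 2. On simulated data of 15897 genes, 88% of genes given a difference of 0.5 were called for diet over all genotypes and 35% for diet within AwTw. The simulated errors were independent between genes, and only a small share of genes was changed. In the data the subunit genes rose and fell together and many genes were called, so these rates need not hold there.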

Additional observations from a re-analysis of the deposited data

Results flagged for a closer look

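Among 312 sets of values (the complex means and the named genes in each group of 4 to 6 mice), 28 held a mouse that lay far from the others of its group by Dixon's criterion, which chance meets in about 1 of 20 groups. No difference between genotypes in the effect of diet was called for a subunit gene.

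In AwTw/STD the mouse of batch 0 that stood apart was the highest for the means of complexes III, IV and V, at 11.10, 10.26 and 11.33, where the next mouse had 10.59, 9.64 and 10.79. In the same group the highest mouse lay apart for Atp5e (10.27), Atp5g2 (9.18), Cox7a2 (11.32), Cox7c (10.64), Ndufa4 (11.50) and Uqcr10 (10.67), and the lowest for Uqcrb (9.11). In AwTw/TWD the highest mouse lay apart for Cox8b (8.21) and Ndufa4 (11.45).

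In AwT+/STD, the group with the least spread, the lowest mouse lay apart for the means of complexes I and III (9.81 and 10.43) and for Atp5b (13.78), Atp5e (9.18), Ndufa5 (9.70) and Ndufa6 (9.93), and the highest for Atp5g3 (11.42). In AwT+/TWD the highest mouse lay apart for Atp5g3 (11.99), Ndufa4 (11.59) and Uqcr11 (11.89). In A+T+/STD the lowest mouse lay apart for the complex V mean (10.75), Ndufb4 (7.15) and Uqcr11 (10.83), and in A+T+/TWD for Cox6b2 (5.93), Cox8b (5.26) and Uqcrc2 (10.66).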

How the results depend on the processing

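Of the 78 subunit genes, 57 were called for diet over all genotypes. This count was 0 at an adjusted p under 0.01, in batch 0 alone, with the first residual component as a covariate, and, among alternatives chosen after seeing the data, with the ribosomal protein mean or the short minus long transcripts as a covariate and in batch 0 after removal of the length and GC trend or without AwTw/STD replicate 2 (with or without that removal). It stayed within 1.5 times in the other 10 alternatives and lay between 51 and 61 without any 1 mouse. The 11 calls within AwTw went to 51 at an adjusted p under 0.1, 29 without the batch covariate, 50 in batch 1 alone and 38 among genes above the 25th percentile, and to 0 at an adjusted p under 0.01, in batch 0 alone (with or without AwTw/STD replicate 2), without the mean trend, with quantile normalization, with the trend removed (in both batches or either), with the label prefix, residual component, ribosomal protein or short minus long covariate, and with only the groups compared. Leaving out 1 mouse gave 0 to 52. The share of all genes called can move with these settings too, and is given only where stated above. In A+T+ against AwTw on TWD, 1 gene was called at an adjusted p under 0.1, with the trend removed and with the residual component, ribosomal protein or short minus long covariate, and 0 to 1 without 1 mouse. All other comparisons had 0 calls under every alternative, with 0 to 0 without 1 mouse. The cause of these changes was not tested.

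The diet differences of the complex I, III, IV and V means without 1 mouse lay between 0.27 and 0.32, 0.17 and 0.21, 0.20 and 0.27, and 0.20 and 0.25, and within AwTw between 0.33 and 0.53, 0.17 and 0.33, 0.22 and 0.47, and 0.22 and 0.38. With the ribosomal protein mean as covariate they were 0.0126, -0.0143, -0.0465 and -0.000509, and within AwTw 0.00300, -0.0630, -0.0722 and -0.0559. With the short minus long covariate they were 0.0267, -0.0378 and 0.0188 for complexes I, IV and V, and within AwTw -0.00658, -0.0524, -0.0912 and -0.0509. With the residual component they were 0.0538, 0.0261, -0.0298 and 0.0209 within AwTw. Within AwTw in batch 0 they were -0.0851, -0.0768, -0.142 and -0.111, and after trend removal -0.0842, -0.0745, -0.144 and -0.106, where complex IV over all genotypes had -0.0123. Without AwTw/STD replicate 2 those of batch 0 within AwTw were 0.155, 0.193, 0.171 and 0.164, and after trend removal 0.120, 0.143, 0.126 and 0.129. Complex I within AwTw was 0.655 in batch 1 alone, and for complex III within AwTw the median over genes was 0.461.

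For diet over all genotypes, 4 of the 78 estimates were below 0 in the main fit. With the ribosomal protein mean 36 were below 0, and with the short minus long covariate 28. Among the named genes that were called, signs turned with the ribosomal protein mean for Atp5g1 (-0.00972), Cox4i1 (-0.0213), Cox7a2 (-0.0316), Cox7c (-0.00278), Uqcr11 (-0.0339) and Uqcrq (-0.0257). With the short minus long covariate they turned for Atp5g1 (-0.0181), Cox4i1 (-0.00476), Cox6a1 (-0.00702), Uqcr11 (-0.0294) and Uqcrq (-0.0125). In batch 0 the sign turned for Cox4i2 (-0.0244, -0.0626 after trend removal, and -0.0245 after trend removal without AwTw/STD replicate 2). No paired analysis was possible because the replicate numbers were given in order and the labels carry none. Without counts, depth could not be weighed.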
